A study of Mus musculus with 4 samples.

Results

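The CHD genes encode chromodomain helicase DNA-binding proteins, ATP-driven enzymes that move, space or evict nucleosomes. All 9 mouse genes of the family, Chd1 to Chd9, were chosen by symbol, and they held 15 of the 40739 transcript rows, or 9 of the 25177 gene symbols, in the authors' deposited table. The family was put forward with earlier results of these data known, Chd7 having ranked among the large rises, so its folds and calls are given as a description and support nothing beyond themselves.

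Each CHD protein joins a pair of chromodomains, which in several members bind methylated histone tails, to a SNF2-type ATPase. Subfamily I (Chd1 and Chd2) adds a DNA-binding domain and is known for nucleosome spacing in transcribed genes. Subfamily II (Chd3, Chd4 and Chd5) carries PHD fingers and supplies the ATPase of NuRD, a complex that couples remodelling to histone deacetylation. Subfamily III (Chd6 to Chd9) includes CHD7, an enhancer-bound remodeller whose gene is mutated in human CHARGE syndrome, and CHD8, known from human autism and from binding beta-catenin.

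NIH-3T3 cells, a mouse embryonic fibroblast line, gave nuclear RNA for 4 directional libraries of 500000 cells each. 2 libraries came from cells given doxycycline for 6 h, at 500 ng/ml in the extraction protocol but per microlitre in the treatment protocol, and 2 came from cells given the solvent. Cells of both groups carried H2B-mCherry, the rtTA3G transactivator and CDX2, a homeobox factor, under the doxycycline-dependent TRE3G promoter, and grew in puromycin. No group received doxycycline without the CDX2 transgene, so effects of the drug and of CDX2 cannot be told apart. The labels do not say whether the line is a single clone or whether replicates were separate cultures, and p-values may reflect technical spread only.

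The file holds a single comparison, with 1 log2 fold change (doxycycline over solvent), 1 mean log2 level and 1 limma p per transcript and no value per library, so it cannot be seen whether a single library carries a result. Group levels below, in CPM (read counts scaled to a common library size), were derived as the mean log2 level plus (doxycycline) or minus (solvent) the log2 fold change over 2. Standard errors are the fold change divided by limma's t, and 95% intervals assume normal errors. Lowest values imply an effective depth of about 45700000 counts per library as a geometric mean. The induced gene, Cdx2, stood at 612.5 CPM with doxycycline and 4.96 CPM with solvent in the authors' deposited table, on a single row that does not separate the transgene from the endogenous gene. All 12 fibroblast markers checked were tested, with means of 5.64 to 2086 CPM; by limma's adjusted p under 0.05, 8 fell and 1 rose in the authors' deposited table, beside 13.4% lower and 11.3% higher over the 12355 genes with at least 10 mean counts, and the stricter test with widened standard errors left 3 falls and 1 rise. Their levels summed to 5655 CPM with doxycycline and 6858 CPM with solvent. Of 9 markers of epithelial, blood, endothelial and neural cells, 7 lay under a mean of 10 counts per library, among them Krt18 with no reads, and the sums were 4.49 CPM with doxycycline and 6.07 CPM with solvent in the authors' deposited table. Of the 2 that were tested, the epithelial cadherin gene Cdh1 fell (log2 fold change -1.62 ± 0.22, limma adjusted p 2.14e-11), also under the stricter test, to 0.464 CPM with doxycycline, against 1.43 CPM with solvent in the authors' deposited table. The endothelial cadherin gene Cdh5 did not pass and stood at 3.57 CPM with doxycycline and 4.19 CPM with solvent in the authors' deposited table. The part of these marker shifts in the CHD results was not tested. In bulk RNA, fewer cells expressing a gene and less RNA per cell cannot be told apart.

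After CDX2 induction the family did not move as a block. Chd7 and Chd3 rose, by 2.60-fold and 1.58-fold, and Chd1, Chd2 and Chd6 fell by 15.4% to 23.8% in the authors' deposited table. Chd4, Chd5, Chd8 and Chd9 did not pass the test. The test covered the 12355 genes whose geometric mean reached 10 counts a library, and a call is a limma adjusted p under 0.05 over the authors' whole table. All 9 members reached that floor, the lowest being Chd5 at 36.8 counts. The 5 members called stand beside 24.7% of all genes tested in the authors' deposited table, with 2 higher beside 11.3% and 3 lower beside 13.4%. The median log2 fold change of the 9 was 0.027, with a median size of 0.24, against -0.0011 and 0.13 over all genes tested in the authors' deposited table. As a stricter test, every standard error was multiplied by 2.08, a robust SD of the t values. Then 4.66% of genes were called; Chd3 and Chd7 were among them (Benjamini-Hochberg adjusted p 4.49e-05 and 0.00870), whereas Chd1, Chd2 and Chd6 were not (adjusted p 0.179, 0.286 and 0.561).

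**Figure D1:**
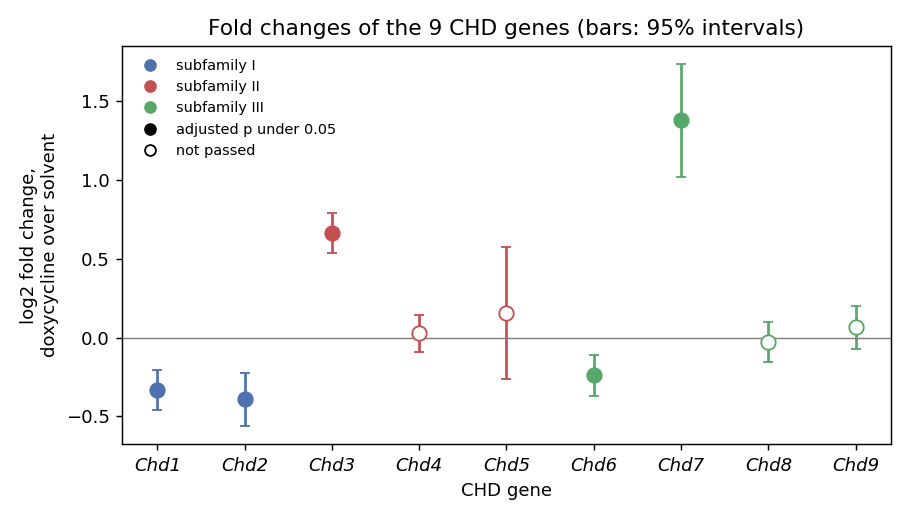
Log2 fold change of each CHD gene, doxycycline over solvent, with 95% intervals; colours give the subfamily and filled points passed an adjusted p under 0.05. Chd7 (1.38) and Chd3 (0.66) lie above 0, and Chd1 (-0.33), Chd2 (-0.39) and Chd6 (-0.24) lie below.

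Both genes of subfamily I fell by limma's adjusted p, but neither passed the stricter test. Chd1 (NM_007690, mm10, chr17:15704967-15772612, plus strand), a remodeller that binds trimethylated lysine 4 of histone H3 and follows elongating RNA polymerase II, stood at 68.8 CPM with doxycycline and 86.7 CPM with solvent in the authors' deposited table. Its log2 fold change was -0.33 ± 0.066 (± standard error; limma adjusted p 7.90e-06), a level 20.6% lower with doxycycline in the authors' deposited table. Chd2 (NM_001081345, chr7:73426652-73541746, minus strand), whose human orthologue is mutated in epileptic encephalopathy, stood at 8.38 CPM with doxycycline and 11.0 CPM with solvent in the authors' deposited table. The log2 fold change of Chd2 was -0.39 ± 0.086 (limma adjusted p 8.90e-05), a level 23.8% lower in the authors' deposited table. The falls differed by less than their error: the log2 fold change of Chd1 minus that of Chd2 was 0.060, with an interval of -0.15 to 0.27 in the authors' deposited table. Summed per kilobase of exon, the pair held 9.70 CPM per kb with doxycycline and 12.3 CPM per kb with solvent in the authors' deposited table. Chd2 made up 9.61% of that sum with doxycycline and 9.97% with solvent, and Chd1 the rest.

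In subfamily II a minor member rose and the major member did not pass. Chd3 (NM_146019, chr11:69343273-69369426, minus strand), a NuRD ATPase, stood at 126.6 CPM with doxycycline and 79.9 CPM with solvent in the authors' deposited table. Its log2 fold change of 0.66 ± 0.064 (limma adjusted p 4.24e-23) gives a 1.58-fold rise with an interval of 1.45-fold to 1.73-fold in the authors' deposited table. It ranked 244 from the top of the 12355 folds and lay among well-covered genes, with a geometric mean of 4598 counts per library in the authors' deposited table. Chd4 (NM_001346610, chr6:125095981-125130591, plus strand), the main NuRD ATPase of many tissues and the ATPase of ChAHP, stood at 395.3 CPM with doxycycline and 388.1 CPM with solvent in the authors' deposited table. For Chd4 the log2 fold change was 0.027 ± 0.060 (limma adjusted p 0.873), and the interval of the change ran from -6.08% to 10.5% in the authors' deposited table. Chd5 (NM_001081376, chr4:152338651-152390194, plus strand), known mainly from neurons and testis, stood at 0.861 CPM with doxycycline and 0.774 CPM with solvent in the authors' deposited table. Its log2 fold change of 0.15 ± 0.21 (limma adjusted p 0.873) left a wide interval of change, from -16.7% to 48.6%, in the authors' deposited table.

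The balance within subfamily II moved with Chd3. The log2 fold change of Chd3 minus that of Chd4 was 0.64, with an interval of 0.46 to 0.81 in the authors' deposited table. Per kilobase of exon, Chd3 made up 22.7% of the summed level of Chd3, Chd4 and Chd5 with doxycycline and 15.9% with solvent, while Chd4 made up 77.2% with doxycycline and 84.0% with solvent in the authors' deposited table. Chd5 held 0.118% of that sum in each group.

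Subfamily III split in 3 ways. Chd7 (NM_001277149, chr4:8690406-8868449, plus strand) stood at 2.35 CPM with doxycycline and 0.906 CPM with solvent in the authors' deposited table. The log2 fold change of 1.38 ± 0.18 (limma adjusted p 2.29e-12) gives a 2.60-fold rise, with an interval of 2.03-fold to 3.33-fold in the authors' deposited table. This fold ranked 28 from the top of the 12355 genes tested, but it rests on a geometric mean of 66.3 counts per library in the authors' deposited table. Chd6 (NM_173368, chr2:160946978-161109086, minus strand), linked in human cells to oxidative DNA damage, stood at 43.8 CPM with doxycycline and 51.7 CPM with solvent in the authors' deposited table. This gives a log2 fold change of -0.24 ± 0.068 (limma adjusted p 0.00418), a level 15.4% lower with doxycycline in the authors' deposited table. Chd6 did not pass the stricter test.

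The remaining pair of subfamily III did not pass. Chd8 (NM_201637, chr14:52198151-52257760, minus strand) stood at 89.0 CPM with doxycycline and 90.9 CPM with solvent, with a log2 fold change of -0.029 ± 0.065 (limma adjusted p 0.873) in the authors' deposited table. Its sign turned when ribosomal protein genes were set to 0 (0.015) or the trend with level was removed (0.022). The interval of its change ran from -10.3% to 7.01% in the authors' deposited table. Chd9 (NM_177224, chr8:90828835-91054508, plus strand), described as a coactivator of nuclear receptors, stood at 38.0 CPM with doxycycline and 36.3 CPM with solvent in the authors' deposited table. Its log2 fold change was 0.066 ± 0.070 (limma adjusted p 0.778), with an interval of change from -4.86% to 15.1% in the authors' deposited table. The summed level of the 4 genes of the subfamily was 18.3 CPM per kb with doxycycline and 19.0 CPM per kb with solvent in the authors' deposited table. Chd7 made up 1.15% of it with doxycycline and 0.425% with solvent in the authors' deposited table.

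**Figure D2:**
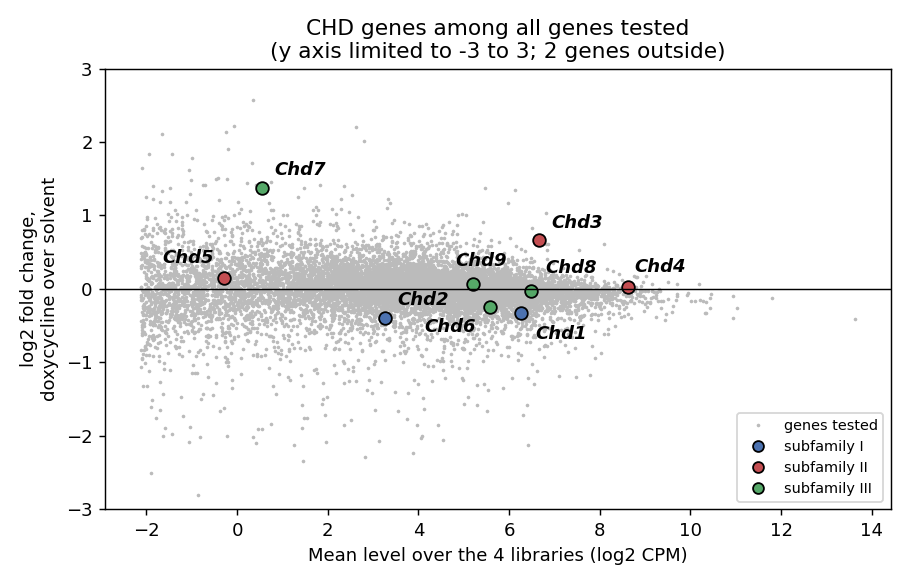
Log2 fold change, doxycycline over solvent, against the mean level over the 4 libraries (log2 CPM) for the 12355 genes tested (grey), with the CHD genes in colour by subfamily; the y axis ends at -3 and 3 and 2 genes lie outside. Chd7 is a large rise at a low level, and Chd3 sits above the narrow band of genes with like levels.

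Levels per kilobase of exon spanned the family from abundant to barely detected. Chd4 led in both groups, with 59.7 CPM per kb with doxycycline and 58.6 CPM per kb with solvent in the authors' deposited table. Errors of group levels were taken from the table's own standard errors, at 1 spread for both groups. With doxycycline the order was Chd4, Chd3 (17.6 CPM per kb), Chd8 (10.6), Chd1 (8.77), Chd6 (4.17), Chd9 (3.32), Chd2 (0.932), Chd7 (0.210) and Chd5 (0.0916), and each neighbouring pair differed by over 2 standard errors in the authors' deposited table. With solvent, Chd3 (11.1 CPM per kb), Chd1 (11.0) and Chd8 (10.8) followed Chd4 and lay within 2 standard errors of each other in the authors' deposited table. The next were Chd6 (4.92 CPM per kb), Chd9 (3.17) and Chd2 (1.22), and the last pair, Chd5 (0.0823) and Chd7 (0.0807), lay within 2 standard errors of each other with solvent in the authors' deposited table. So Chd3 stood with Chd1 and Chd8 in solvent and apart from them with doxycycline, and Chd7 stood with Chd5 in solvent and above it with doxycycline.

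**Figure D3:**
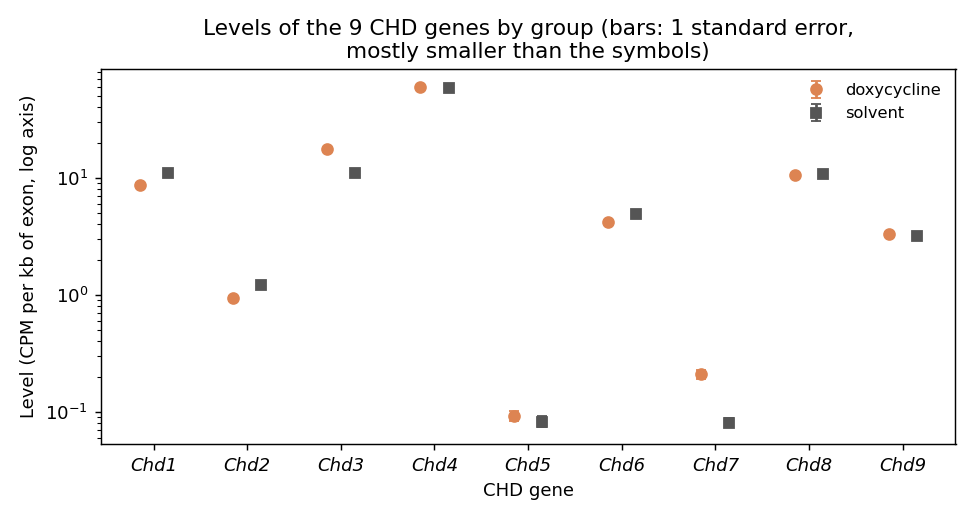
Level of each CHD gene in CPM per kilobase of exon (log axis), doxycycline left of solvent, with bars of 1 standard error. Levels run from 59.7 (Chd4 with doxycycline) down to 0.0807 CPM per kb (Chd7 with solvent), and the gap between the groups is widest for Chd7.

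The summed level of the 9 genes was 105.4 CPM per kb with doxycycline and 101.1 CPM per kb with solvent, a log2 difference of 0.060 in the authors' deposited table. Chd4 made up 56.7% of it with doxycycline and 58.0% with solvent, Chd3 made up 16.7% with doxycycline and 11.0% with solvent, and Chd1 made up 8.32% with doxycycline and 10.9% with solvent in the authors' deposited table. By share of the sum Chd7 moved least among the called genes, at 0.199% of the sum with doxycycline and 0.0798% with solvent in the authors' deposited table.

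CHD genes are long, a property that the choice by symbol did not use. Their spans ran from 26.2 kb (Chd3) to 225.7 kb (Chd9), and 7 of the 9 lay in the longest span quartile of the genes tested, which begins at 48.2 kb. Exon lengths of the rows, 6620 to 11438 bases, lay above those of 91.3% or more of the genes tested. In the longest span quartile 20.7% were called lower and 9.87% higher, beside 13.4% and 11.3% over all genes tested in the authors' deposited table. Chd1, Chd2 and Chd6, the members that fell, are all in that quartile, and so is Chd7, which rose. With the trend of fold with span removed, Chd6 stood at -0.17 (adjusted p 0.0445), Chd2 at -0.34, Chd1 at -0.32 and Chd7 at 1.45, and the same 5 members were called.

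Alternative rows of a gene, which share most exons and so most reads, differed little from the rows above. Chd4, Chd6, Chd7 and Chd9 have 2 rows each, Chd5 has 3 and the other members have 1. The rows of Chd7 start 60918 bases apart and had log2 fold changes of 1.38 and 1.37 in the authors' deposited table. The longer has 543 more exon bases, 5.08% more, but 1.40% more signal, or about 0.922 counts per library as a difference of geometric means in the authors' deposited table. The rows of Chd9 start 103414 bases apart, and the longer has 1.36% more exon bases and 0.146% more signal in the authors' deposited table. Both rows of Chd6, a coding and a noncoding transcript of the same span, had log2 fold changes of -0.24 and -0.25 in the authors' deposited table. The file thus cannot part the starts of Chd7 or of Chd9 by their use.

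RefSeq start windows (GRCm38.p6, which is mm10) were at hand for 5 members, Chd4, Chd5, Chd6, Chd8 and Chd9, with 8 starts in all. The 250 bases before the start are shown for Chd6, the 1 called member among them, and for both starts of Chd9, whose base composition differs widely. Capitals mark CpG dinucleotides.
Chd6, chr2:161109087-161109336, minus strand: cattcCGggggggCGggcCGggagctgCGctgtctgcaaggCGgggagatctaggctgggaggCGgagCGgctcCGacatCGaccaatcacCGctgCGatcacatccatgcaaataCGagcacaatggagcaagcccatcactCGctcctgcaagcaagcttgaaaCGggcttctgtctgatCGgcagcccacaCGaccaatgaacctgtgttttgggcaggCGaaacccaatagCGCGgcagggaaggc
Chd9, upstream start, chr8:90828585-90828834, plus strand: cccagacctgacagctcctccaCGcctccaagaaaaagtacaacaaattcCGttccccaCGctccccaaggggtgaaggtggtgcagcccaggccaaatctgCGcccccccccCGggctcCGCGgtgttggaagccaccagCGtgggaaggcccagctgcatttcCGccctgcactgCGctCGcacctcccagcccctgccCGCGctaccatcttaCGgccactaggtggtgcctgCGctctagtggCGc
Chd9, downstream start, chr8:90931999-90932248, plus strand: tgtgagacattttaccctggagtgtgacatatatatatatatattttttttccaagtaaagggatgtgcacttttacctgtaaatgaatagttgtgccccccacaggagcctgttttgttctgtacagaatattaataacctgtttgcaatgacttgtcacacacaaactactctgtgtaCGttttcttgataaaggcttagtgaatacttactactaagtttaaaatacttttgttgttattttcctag
The Chd6 window holds 19 CpG dinucleotides and 61.6% G and C, and the upstream Chd9 window 16 and 66.0%. The downstream Chd9 window holds 1 CpG and 33.6% G and C, beside a median of 6 CpG and 52.4% over 32851 windows. The letters TTTATG and TTTATT, of the kind that CDX proteins bind, were searched on both strands. Neither was found in the 8 CHD windows, whereas 10.8% of all windows hold TTTATG, 18.1% hold TTTATT and 25.5% hold at least 1 of them. The windows of Chd4 overlap each other, as do those of Chd5, so the 8 windows hold fewer separate stretches. All but the downstream Chd9 window hold 54.0% to 70.0% G and C, above the median of 52.4%. No windows of like composition were compared. The presence or absence of these letters alone says nothing about binding of CDX2.

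Some CHD rows share ground with other genes, and no source used here says whether counting used strand. The noncoding gene 1810026B05Rik (NR_037569, chr7:73539798-73558395) lies on the strand of Chd2 and overlaps its first 1949 bases. It stood at 2.91 CPM with doxycycline and 3.38 CPM with solvent, with a log2 fold change of -0.22 ± 0.12 (limma adjusted p 0.298) in the authors' deposited table. Over all isoforms in GENCODE M21, which include exons outside the Chd2 row used here, its exons share 2628 bases with the 14300 merged exon bases of Chd2. How many reads the genes share cannot be seen in the file, and the values of Chd2 are uncertain for that reason. Mir7045 lies within Chd4 and Snord8 within Chd8, and neither was called (adjusted p 0.873 and 0.613, with Snord8 at a mean of 2.00 counts) in the authors' deposited table. On the opposite strand, the noncoding gene Gm26590 shares 953 bases, 5.77% of the merged GENCODE exon bases, with Chd8, and noncoding genes share 1.05% or less with Chd2, Chd5 and Chd9. No gene of GENCODE M21 overlaps Chd1 or Chd7, and the 1 that overlaps Chd3 shares 0 exon bases.

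Lists of partner genes were written down with the earlier results known, and their counts stand beside 11.3% higher, 13.4% lower and 24.7% called in all over the genes tested. In the authors' deposited table, 2 of 13 tested NuRD partners (15.4%) rose and 0 fell, with a median log2 fold change of 0.015, and the share that rose is near that of all genes. Mbd2, which encodes a methyl-CpG-binding subunit, rose by 0.23 ± 0.071 on the log2 scale to 34.9 CPM with doxycycline, against 29.8 CPM with solvent in the authors' deposited table (limma adjusted p 0.0123). The deacetylase gene Hdac1 rose by 0.22 ± 0.069 to 46.9 CPM with doxycycline, against 40.3 CPM with solvent in the authors' deposited table (limma adjusted p 0.0146). Sall1 and Sall4, transcription factors that recruit NuRD, lay under the floor of 10 counts.

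ChAHP joins CHD4 to ADNP and HP1 proteins. Of its 5 partner genes 1 was called, beside 24.7% over all genes tested. Cbx5, which encodes HP1 alpha, fell (-0.24 ± 0.060, limma adjusted p 0.00101), to 319.0 CPM with doxycycline, against 375.8 CPM with solvent in the authors' deposited table. The other 4 did not pass. Adnp itself stood at 0.046 ± 0.063 (limma adjusted p 0.873) in the authors' deposited table. FACT and the PAF complex work with CHD1 on transcribed chromatin, as known from yeast. Of 11 such genes 1 was called (9.09%, beside 24.7%). Supt16, the large FACT subunit, fell (-0.27 ± 0.064, limma adjusted p 3.08e-04) in the authors' deposited table. Among the 10 that did not pass is its partner Ssrp1, listed at -0.066 ± 0.062 in the authors' deposited table. The Supt16 row overlaps that of Rpgrip1, and the values may share reads. The medians were -0.034 for ChAHP partners and 0.022 for elongation partners.

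In the authors' deposited table, limma's adjusted p called 0 of 10 tested partners of CHD7 and CHD8, beside 24.7% of all genes tested. The median log2 fold change of these partners was -0.075. An unadjusted limma p under 0.05 was found for 4 of them, but the share of all genes under that threshold was not computed. Wdr5, a subunit of histone H3 lysine 4 methyltransferases, came nearest at -0.18 ± 0.068 (limma adjusted p 0.0575), and Ctnnb1, which encodes beta-catenin, stood at -0.090 ± 0.060 in the authors' deposited table. Among 18 tested genes of other SNF2 ATPases, Smarcal1, an annealing helicase of replication forks, rose (0.37 ± 0.089, limma adjusted p 4.18e-04) and Ino80 fell (-0.22 ± 0.068, limma adjusted p 0.00939) in the authors' deposited table. None of the other 16 passed. Chd1l, the relative of Chd1 that lacks chromodomains, stood at 0.032 ± 0.10, with 6.63 CPM with doxycycline and 6.48 CPM with solvent in the authors' deposited table. The median of the SNF2 list was -0.025. Calls of 2 in 18 stand beside 24.7% over all genes tested.

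Genes of CHARGE-related and neural crest development, a setting in which CHD7 is known to act in human cells and in frogs, held more falls than rises. In the authors' deposited table, 5 of the 8 tested (62.5%) fell and 1 (12.5%) rose, beside 13.4% lower and 11.3% higher over all genes tested, with a median log2 fold change of -0.40. The fibroblast markers had 8 of 12 (66.7%) lower and a median of -0.26 in the authors' deposited table, and their part in the counts of this list was not tested. Sox9, a regulator of neural crest and cartilage, fell to 193.7 CPM with doxycycline, against 354.4 CPM with solvent (-0.87 ± 0.061, limma adjusted p 1.07e-43) in the authors' deposited table. Sema3a, a guidance factor gene linked to hypogonadotropic hypogonadism in humans, fell to 11.9 CPM with doxycycline, against 21.1 CPM with solvent (-0.82 ± 0.085, limma adjusted p 7.38e-20) in the authors' deposited table. Tfap2a (-1.08 ± 0.071) and Snai2 (-0.54 ± 0.080), both regulators of neural crest formation, and Sox4 (-0.25 ± 0.067) fell as well, whereas Pax3 (0.34 ± 0.088) rose in the authors' deposited table. Twist1, which is also among the fibroblast markers, stood at -0.18 ± 0.074 (limma adjusted p 0.0856) in the authors' deposited table. Gm26688 overlaps the Tfap2a row. Foxd3, Msx1, Sema3e and Sox11 had no reads, and Sox10 and Msx2 lay under the floor. The stricter test left 4 falls and 0 rises in this list and 0 calls in the other 5 lists. Under that test 4.66% of all genes tested were called.

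**Figure D4:**
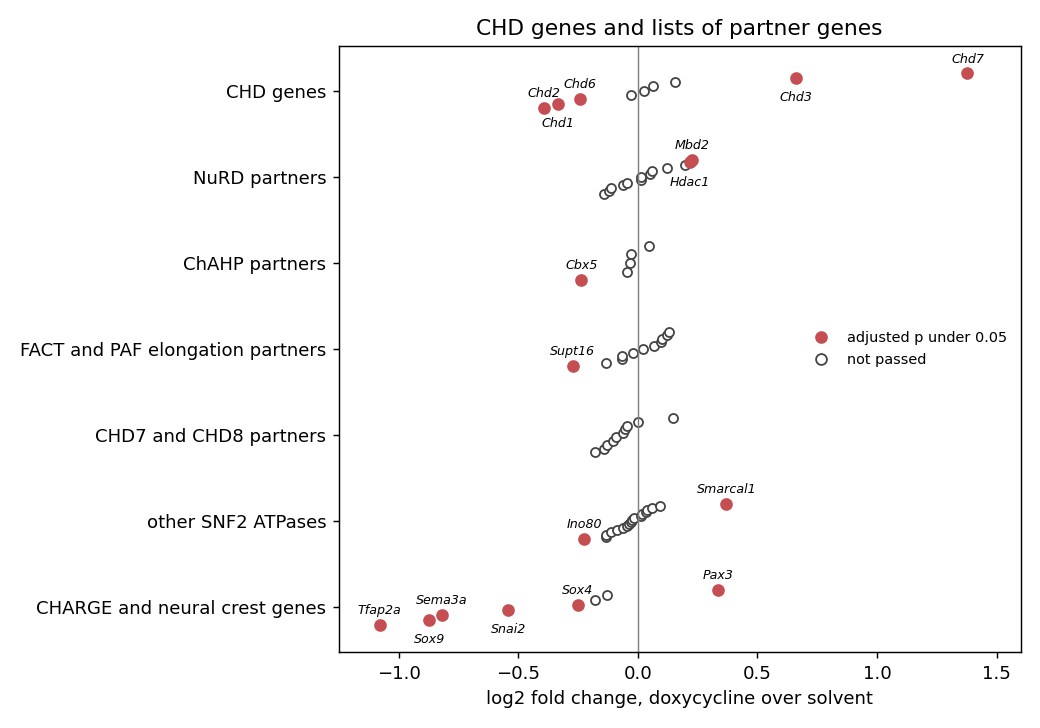
Log2 fold change, doxycycline over solvent, of the 9 CHD genes and of the tested genes of 6 partner lists, 1 point per gene; filled red points passed an adjusted p under 0.05. Most partner genes lie close to 0 except for the CHARGE and neural crest genes, 5 of which fell (Tfap2a at -1.08) and 1 of which rose (Pax3 at 0.34).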

How the data were processed

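Per the submitters' processing notes, the build was mm10 and the tools included limma, edgeR, HOMER 4.10, STAR 2.7.1a, Picard and SAMtools 1.10, in roles not given. The authors deposited 1 table with the columns of limma's output, used as given: log2 fold change and mean log2 level, a t score, p-values with adjusted p-values, and other columns (start, end and exon length). A minimum shared by 9211 transcripts without reads gave the scale, log2 CPM with 0.5 counts added, and from it depth and mean counts.

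Computed here (Python 3.11.15, pandas 2.3.3, SciPy 1.17.1): 1 row per gene (highest mean level), standard errors, group levels, a floor of 10 counts, calls at the authors' adjusted p under 0.05, and Benjamini-Hochberg adjustment over genes tested where p was recomputed. On simulated data only the adjustment, the robust SD of t and the removal of a trend with level were tried. The simulated noise had exactly the standard errors used here, without the wider spread of 2.08.

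Members and lists were chosen with earlier results of these data known. Named were all members, called list genes (up to 4 by smallest p, plus others singled out after their values were seen), and genes overlapping a member or starting within 10000 bases. The design planned tests on counts per library, protein sequences and likeness across samples; none were run, since the table holds 1 comparison and no proteins were at hand. The authors' limma test took their place.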

Additional observations from a re-analysis of the deposited data

How the results depend on the processing

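Of 54 recomputed fold changes of members, 52 kept their direction and their side of the threshold. Some of these could not change. The row of longest exon length is the row reported for every member, and that setting repeats their values. The row with the smallest fold change is another row only for Chd5, Chd7 and Chd9. Of 25 recomputed counts of calls, 22 stayed within 1.5 times the reported count. Both sums of levels were recomputed only with the row of longest exon length, so they could not move. Genes called numbered 2875 with a floor of 50 counts, 3293 with none and 3392 with p adjusted over the genes tested. With standard errors widened by 2.08, 2 members were called (Chd3 and Chd7) and 0 were lower, in place of 5 and 3, and 576 genes were called in place of 3047; the widening also takes in real changes. Chd8 turned from -0.029 to 0.015 with ribosomal protein genes (median -0.044) set to 0 and to 0.022 with the trend with level removed; both values lie within its error. The 5 called members stayed the same with other floors (50 counts or none), p adjusted over the genes tested and ribosomal scaling. They also stayed the same with another row per gene, but only Chd7 among them changed row, and its rows share most reads. Chd7 ranged from 1.36 to 1.45 and Chd3 from 0.66 to 0.71. No paired analysis was possible because the table gives 1 comparison and no value per library; for the same reason leaving out a replicate, edgeR and DESeq2 fits were not run.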
